A study of Mus musculus with 4 samples.

Results

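Major urinary proteins (MUPs) are small secreted carriers of the lipocalin family, and in the mouse they are made in large amounts by hepatocytes, pass from the blood into the urine and release bound volatile pheromones from scent marks. Their liver transcripts depend on pulsatile growth hormone acting through STAT5B and on testosterone, so that adult male livers carry far more of them than female livers. The genes arose by repeated duplication, and many copies still encode nearly the same protein. Here 10 of these genes, Mup1, Mup3, Mup7, Mup9, Mup10, Mup11, Mup17, Mup20, Mup21 and Mup22, were described in the livers of mice with and without Usp21, a deubiquitylating protease. The members were the rows of the deposited transcript table that carry one of these 10 symbols, of 35739 genes in all. The table lists 12 further genes whose symbol begins with Mup and a digit, and these were used as a comparison. A sum over the family is given beside the single genes, because copies that share most of their sequence also share reads.

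The series holds 4 liver RNA-seq libraries of mice, 2 of wild-type (WT) mice, replicates 2 and 3, and 2 of Usp21 knockout (KO) mice, replicates 1 and 3. The KO allele is constitutive: it was targeted in embryonic stem cells, and breeding of the floxed mice with mice expressing Cre recombinase then removed the catalytic exons. WT and KO mice were littermates of 10 to 11 weeks on a mixed background of B6 and the strain of those cells, kept on a normal diet. No treatment was given to either genotype. The labels number the libraries without saying that each is a separate animal, so the p-values measure the spread between these libraries, which may in part be technical. Expression was given as TPM, a transcript level corrected for transcript length and scaled to about the same total in each library, and neither the number of reads behind it nor a counting interval can be had from it.

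Usp21 transcripts were lower in both KO libraries, at 1.64 and 2.93 TPM, than in the WT libraries, at 4.07 and 6.29 TPM. This difference of −0.92 ± 0.33 (SE, log2 scale) did not pass the test across all genes, with limma's adjusted p of 0.464. Hepatocyte markers were abundant in all 4 libraries, with Alb between 27475 and 43181 TPM. The Y-linked genes Eif2s3y (11.9 to 24.4 TPM), Ddx3y (7.14 to 20.5 TPM), Uty (1.44 to 3.03 TPM) and Kdm5d (1.03 to 1.69 TPM) were detected in each library, while the labels do not state the sex of the mice. Xist and Tsix, the RNAs that govern the inactive X chromosome, have no row in the TPM table.

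The 22 Mup genes of the GENCODE M21 annotation lie side by side in 2194 kb of mouse chromosome 4 (GRCm38, chr4:59956804-62150863), together with 26 Mup pseudogenes and 0 other protein-coding genes. All 10 members are read from the reverse strand. Their order along the chromosome follows their sequence. The 16 genes that share at least 50% of their 31-base words with other Mup genes occupy positions 3 to 18 of the row, and the 6 more distinct genes stand at its ends. Of the members, 7 belong to the near-identical block (Mup1, Mup7, Mup9, Mup10, Mup11, Mup17 and Mup22) and 3 are distinct (Mup3, Mup20 and Mup21). Among the 21 pairs of near-identical members, the coding sequences were 98.3% to 99.6% equal, which leaves 2 to 9 differing bases per pair. A near-identical and a distinct member were 83.2% to 91.3% equal, and Mup3 and Mup21 were 95.4% equal to each other.

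**Figure D1:**
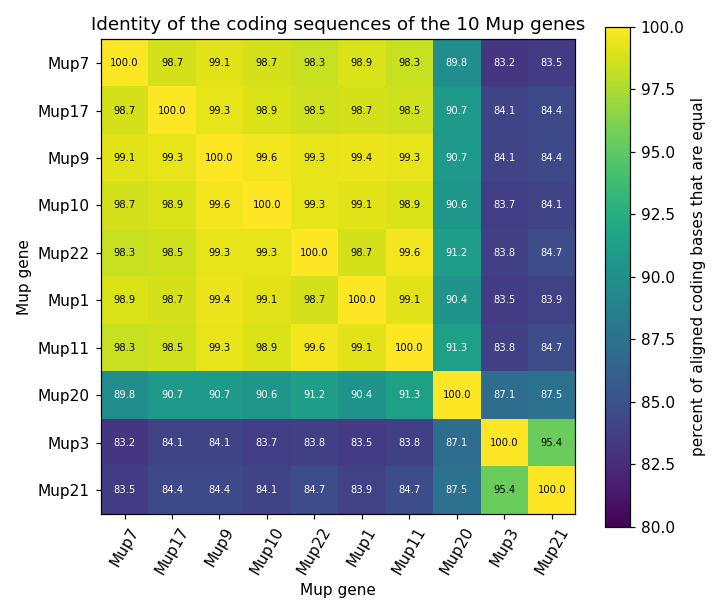
Percent of aligned coding bases that are equal for each pair of the 10 members, with 1 consensus coding transcript per gene. The 7 near-identical members form a block between 98.3% and 99.6%, Mup20 lies at 89.8% to 91.3% from that block, and Mup3 and Mup21 lie at 83.2% to 84.7% from it.

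How little separates these genes can be read from the 60 coding bases in which the members differ most, which span the junction of exons 2 and 3. The sequences are given 5′ to 3′ in the direction of transcription, taken from the GENCODE M21 transcripts, with capitals where a gene differs from the commonest base of the 10. Of the 60 positions, 25 differ among the members but 2 differ among the 7 near-identical ones.
Mup22: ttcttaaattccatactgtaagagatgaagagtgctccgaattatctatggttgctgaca
Mup11: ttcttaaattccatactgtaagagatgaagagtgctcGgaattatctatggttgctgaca
Mup7: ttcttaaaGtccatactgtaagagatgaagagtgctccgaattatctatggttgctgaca
Mup20: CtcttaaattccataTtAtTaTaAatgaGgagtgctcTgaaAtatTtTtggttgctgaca
Mup21: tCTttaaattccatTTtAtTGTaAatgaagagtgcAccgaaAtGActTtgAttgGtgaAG
Mup3: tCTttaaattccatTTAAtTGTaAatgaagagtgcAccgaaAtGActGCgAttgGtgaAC
These stretches begin and end at chr4:60820039-60820866 (Mup22), chr4:60660921-60661748 (Mup11), chr4:60068934-60069751 (Mup7), chr4:62052669-62053498 (Mup20), chr4:62149387-62150213 (Mup21) and chr4:62085992-62086818 (Mup3), with an intron between the exons. Mup9 and Mup10 have the same 60 bases as Mup22, Mup1 has those of Mup11, and Mup17 has those of Mup7. A read from this stretch could therefore not be placed in 1 gene of these groups. Over whole transcripts, 0% of the 31-base words of Mup22 were its own, against 9.98% for Mup7, 16.7% for Mup11, 29.8% for Mup1, 35.5% for Mup20, 66.2% for Mup21 and 69.9% for Mup3. The values of Mup1, Mup7, Mup9, Mup10, Mup11, Mup17 and Mup22 are thus uncertain as single genes, since they rest on how salmon divided shared reads. Mup20 shares 51.2% of its words with Mup pseudogenes, against 4.56% for Mup3 and 5.87% for Mup21, so its value may also be less certain.

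Together the 10 members made up 11.3% and 18.1% of all TPM in WT replicates 2 and 3, and 9.27% and 16.2% in KO replicates 1 and 3. The sum was 112927 and 181017 TPM in the WT libraries against 92507 and 162051 TPM in the KO libraries. The groups overlapped, the lowest sum being that of KO replicate 1 and the highest that of WT replicate 3, with KO replicate 3 above WT replicate 2. The mean was 146972 ± 48147 TPM in WT against 127279 ± 49175 TPM in KO (SD, n = 2 libraries each). On the log2(TPM + 1) scale the KO mean lay 0.22 below the WT mean (−0.22), less than the spread of 0.53 between libraries of a genotype (pooled SD). The direction of this difference rested on single libraries. It was 0.12 in favour of KO without WT replicate 3 and 0.18 in favour of KO without KO replicate 1, against −0.56 without WT replicate 2 and −0.63 without KO replicate 3. With all 22 Mup genes the sum was 147027 and 245599 TPM in WT against 113219 and 216993 TPM in KO, up to 24.6% of a library.

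**Figure D2:**
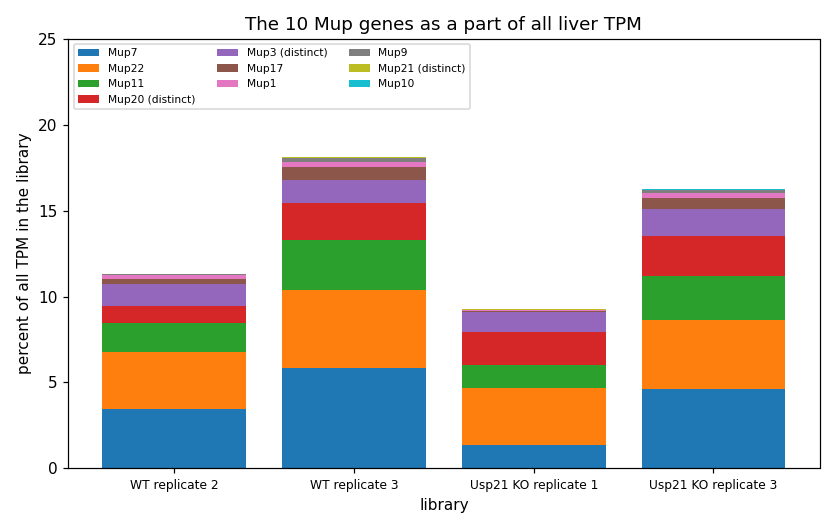
Stacked bars of the 10 members in each library, as percent of all TPM, ordered from Mup7 at the bottom by mean level. The 2 libraries numbered 3 reach 18.1% and 16.2%, WT replicate 2 reaches 11.3% and KO replicate 1 reaches 9.27%.

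The family sum was set beside features of the libraries other than genotype. Both libraries numbered 3 held more Mup transcript than the other 2, by 1.60-fold within WT and by 1.75-fold within KO, and the labels give that number no meaning. A second table of the same libraries, from which whole reads could be recovered, held 110427 and 102898 reads for WT and KO replicates 3. It held 148164 and 145306 reads for WT replicate 2 and KO replicate 1. Of 686 genes that reached 100 TPM in each library, 428 were at 0 in that second table. Its reads are therefore not a measure of the depth behind TPM. The 7 hepatocyte markers summed to 74361 and 59495 TPM in WT against 61535 and 52504 TPM in KO, an order other than that of the Mup sum. Alb was the largest part of this marker sum, at 27475 to 43181 TPM. The total of TPM is about the same in each library, so a larger Mup sum leaves less for other genes, these markers included. The 7 Kupffer cell markers summed to 143 and 163 TPM in WT against 77.2 and 199 TPM in KO, lowest in the KO replicate with the lowest Mup sum, and all 7 were above 0 in every library. The 5 neutrophil and monocyte markers summed to 44.5 TPM in WT replicate 3 and to 2.40 to 7.43 TPM elsewhere, with Ly6g at 0 outside that library. The sums were 34.9 to 54.9 TPM for 6 sinusoidal endothelial markers, 47.2 to 96.5 TPM for 6 stellate cell markers, 14.6 to 37.9 TPM for 5 cholangiocyte markers, 2.76 to 4.87 TPM for 6 lymphocyte markers and 719 to 911 TPM for 5 red blood cell markers, and none of these 5 put the libraries in the order of the Mup sum. The part of these features in the Mup values was not tested. Fewer hepatocytes and less Mup RNA per hepatocyte cannot be told apart in such bulk tissue.

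Levels differed 328-fold between the members. Mup7 and Mup22 led, with means over the 4 libraries of 38047 ± 18922 and 37825 ± 5894 TPM (SD), and 1 or the other ranked first or second among all genes in WT replicate 3, KO replicate 1 and KO replicate 3. Mup11 (21241 TPM), Mup20 (18553 TPM), which encodes the male sex pheromone darcin, and Mup3 (13136 TPM) followed. Then came Mup17 (4446 TPM), Mup1 (2153 TPM), a gene also described as a circulating regulator of glucose and lipid metabolism, Mup9 (1305 TPM), Mup21 (303 TPM) and Mup10 (116 TPM). Of the 9 neighbouring pairs in this order, 7 overlapped in their ranges over the libraries. The 2 steps without overlap were from Mup22 to Mup11 and from Mup3 to Mup17. The members Mup7, Mup22, Mup11, Mup20 and Mup3, were among the 50 highest genes in every library.

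**Figure D3:**
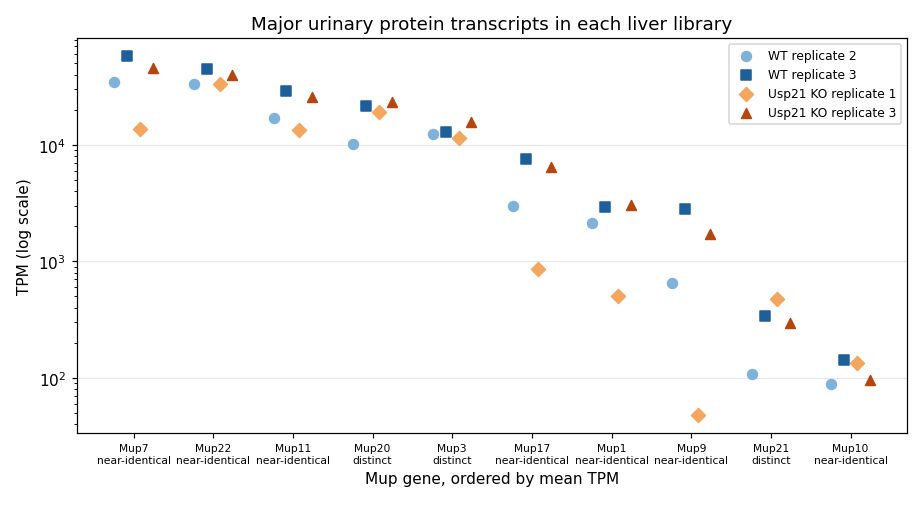
TPM on a log scale for each of the 10 members, ordered by mean, with 1 symbol per library. The 2 genotypes overlap for every member, and KO replicate 1 falls far below the other libraries for Mup9, at 48.4 TPM, Mup1, at 503 TPM, and Mup17, at 860 TPM.

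Among the near-identical members, Mup7 stood at 34372 and 58123 TPM in WT against 13674 and 46019 TPM in KO. Mup22 stood at 33187 and 45220 TPM in WT against 32967 and 39924 TPM in KO. Mup11 stood at 16871 and 29231 TPM in WT against 13302 and 25559 TPM in KO. For these 3 genes KO replicate 1 was the lowest and WT replicate 3 the highest library, and KO replicate 3 lay between the WT libraries. Mup17 showed the same order over a wider range, with 2964 and 7557 TPM in WT against 860 and 6405 TPM in KO. So did Mup9, with 656 and 2802 TPM in WT against 48.4 and 1715 TPM in KO. Mup1 had 2141 and 2922 TPM in WT, 503 TPM in KO replicate 1 and its highest value, 3045 TPM, in KO replicate 3. In Mup9 the KO libraries differed 34.7-fold from each other and the WT libraries 4.27-fold, both as ratios of TPM + 1. Mup10, the lowest member, did not follow this order, at 89.4 and 143 TPM in WT against 135 and 96.4 TPM in KO.

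The 3 distinct members ordered the libraries in other ways. Mup3 varied least of all 10 members, with 12409 and 12995 TPM in WT against 11416 and 15724 TPM in KO. Mup20 had 10129 and 21688 TPM in WT against 19129 and 23268 TPM in KO. Mup21 had 109 and 337 TPM in WT against 471 and 297 TPM in KO. In Mup20 and Mup21 the lowest library was WT replicate 2, while KO replicate 1 was the highest for Mup21 and lay between the WT libraries for Mup20. KO replicate 1 was thus the lowest library for 7 of the 10 members, Mup3 and 6 of the 7 near-identical ones, and WT replicate 2 was the lowest for Mup10, Mup20 and Mup21. The 7 near-identical members together made up 79.9% and 80.7% of the 10-member sum in WT and 66.5% and 75.8% in KO. This difference of −9.19 percentage points, beside a pooled SD of 4.65, was not tested. Both KO libraries lay below both WT libraries, KO replicate 1 by more, and without that library the difference was −4.55 percentage points. Such a separation is common with 2 libraries a group, as 45.3% of tested genes had separate groups.

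**Figure D4:**
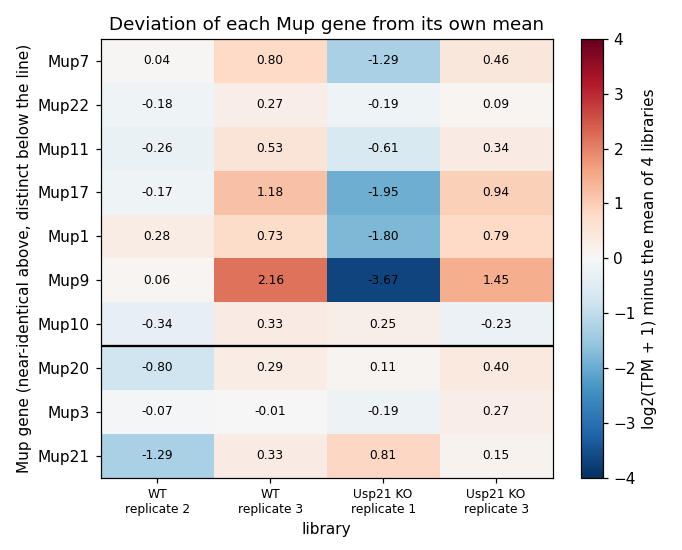
Log2(TPM + 1) of each member in each library minus its mean over the 4 libraries, with near-identical members above the line and distinct members below it. KO replicate 1 is the column with the deepest falls, to −3.67 in Mup9, while Mup3 stays within 0.27 of its mean and Mup21 is lowest in WT replicate 2, at −1.29.

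None of the 10 members differed between genotypes by the test across all genes. All 10 had a mean of at least 1 TPM and entered limma's test on log2(TPM + 1) with 9581 genes, and their adjusted p ranged from 0.538 for Mup21 to 0.987 for Mup10. In limma's fit 0 of the 10 members passed the adjusted threshold of 0.05, and 0 also passed that level without adjustment. Over all tested genes 8 passed the adjusted threshold, 0.0835%, and 10.5% passed the unadjusted one. The second table could not be used for the members, since it held 5 reads in all for the 10 genes and 2 at most for a gene in a library. The groups overlapped for all 10 members and were separate for 45.3% of tested genes.

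By size alone, 3 members were at least 2-fold lower in KO, against 1.1% of tested genes, and 0 were at least 2-fold higher, against 2.59%. These were Mup9, at −2.22 ± 1.66 (log2 fold change ± SE, 95% interval −6.35 to 1.90), Mup1 and Mup17. Mup1 had −1.01 ± 0.81 (−3.02 to 0.99) and Mup17 had −1.01 ± 0.97 (−3.43 to 1.41). Each interval reaches across 0, and the count rested on KO replicate 1, without which it was 0. Without that library the values turned to 0.34 for Mup9, 0.28 for Mup1 and 0.44 for Mup17. Without WT replicate 3 the count was 1, and without WT replicate 2 or KO replicate 3 it was 4. Mup7 had −0.83 ± 0.64 and Mup11 −0.27 ± 0.45, and Mup22, the other leading gene, had −0.09 ± 0.34 with an interval of −0.93 to 0.75.

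The distinct members had log2 fold changes of 0.96 ± 0.55 for Mup21 (95% interval −0.39 to 2.32), 0.51 ± 0.43 for Mup20 (−0.56 to 1.57) and 0.08 ± 0.28 for Mup3 (−0.63 to 0.79). Leaving out WT replicate 2 moved Mup21 to 0.15, and leaving out WT replicate 3 moved it to 1.78 (adjusted p = 0.739 in limma's fit to the other 3 libraries). The value of Mup20 was −0.040 without WT replicate 2. Mup10 had 0.01 ± 0.29, and both Mup3, at −0.057, and Mup10, at −0.12, changed sign when the libraries were scaled to a common upper quartile. For Mup3, Mup10 and Mup22 the interval lay within a 2-fold difference in either direction, whereas for the other 7 a 2-fold difference lay inside it. On the TPM scale the median over the 10 members was −0.18, and that over all tested genes was 0.15. After upper-quartile scaling the 2 medians were −0.32 and 0.04.

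**Figure D5:**
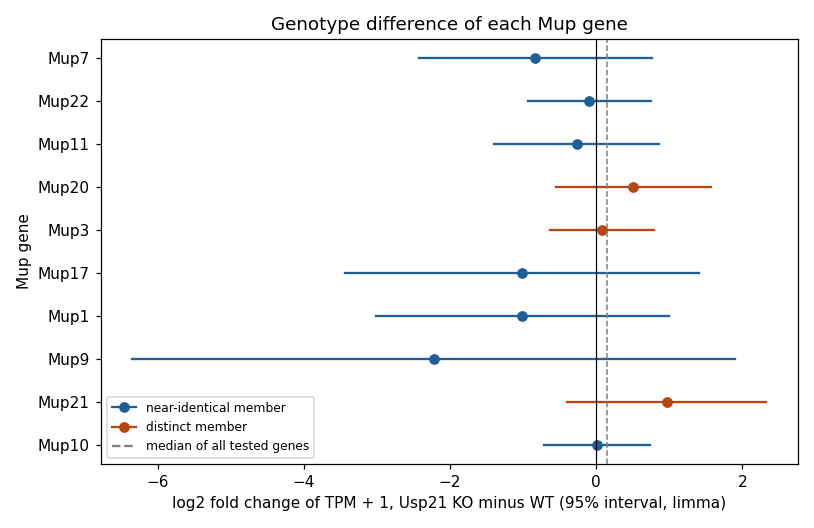
Log2 fold change of TPM + 1 in KO minus WT for each member, with the 95% interval of limma's fit and the median of all tested genes, 0.15, as a dashed line. Every interval crosses 0, and that of Mup9 is the widest, from −6.35 to 1.90.

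The members varied more between libraries of a genotype than most genes did. Their residual SD on the log2 scale had a median of 0.75, from 0.23 in Mup3 to 2.77 in Mup9, against a median of 0.23 over all tested genes. For 5 members, Mup9, Mup17, Mup1, Mup7 and Mup21, it lay above the 95th percentile of tested genes, 0.71. Mup3, whose words are mostly its own, and Mup22, which has none of its own, had the smallest values, 0.23 and 0.26, so the order of spread was not that of the share of unique sequence.

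The 12 other Mup genes were Mup2, Mup4, Mup5, Mup6, Mup8, Mup12, Mup13, Mup14, Mup15, Mup16, Mup18 and Mup19, of which 11 were tested. None passed an adjusted p of 0.05 or an unadjusted p of 0.05 in limma's test. Their groups overlapped in all 11, and their lowest adjusted p among those tested was 0.661. Mup19 had 15735 and 27364 TPM in WT against 7283 and 22143 TPM in KO, and Mup14 had 12164 and 25403 TPM in WT against 10430 and 22422 TPM in KO. Both repeated the order seen in Mup7, with KO replicate 1 lowest and WT replicate 3 highest. Mup15, of which 0% of the 31-base words are its own, was the 1 gene of this group at least 2-fold lower in KO, at −1.18 ± 1.07, with 2324 and 7490 TPM in WT against 631 and 5349 TPM in KO. Mup16 (1067 to 2491 TPM), Mup12 (272 to 978 TPM) and Mup18 (813 to 1751 TPM) were intermediate, Mup18 being lowest in WT replicate 3. Mup2 (20.4 to 150 TPM), Mup8 (13.8 to 58.4 TPM) and Mup13 (2.87 to 33.6 TPM) were low. Mup4, Mup5 and Mup6, the distinct copies outside the member list, reached 4.72 TPM at most, and Mup4 was listed at 0 in 3 of the 4 libraries. The protein-coding genes nearest the cluster, Slc46a2, Snx30 and Inip on the Mup4 side and Zfp37, Slc31a2 and Fkbp15 on the Mup21 side, reached 5.78 TPM at most.

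Promoter windows from RefSeq (GRCm38.p6, 250 bases before to 50 after the start) were matched for 7 members, Mup3, Mup7, Mup9, Mup10, Mup11, Mup17 and Mup21, and not for Mup1, Mup20 and Mup22. The windows are shown because members with the same letters there were listed at very different levels. The longest stretch common to all 7 windows was 19 bases, AAAACATTCCACAAAGCCT, set in capitals below, searched on both strands with up to 20 bases on either side.
Mup9: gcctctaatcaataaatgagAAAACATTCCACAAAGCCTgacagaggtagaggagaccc
Mup10: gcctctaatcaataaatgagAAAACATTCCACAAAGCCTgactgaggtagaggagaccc
Mup3: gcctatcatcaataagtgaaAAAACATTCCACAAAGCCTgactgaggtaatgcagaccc
Mup21: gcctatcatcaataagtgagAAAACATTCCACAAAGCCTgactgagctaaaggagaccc
They lie on the reverse strand at chr4:60422057-60422115 (Mup9), chr4:60582258-60582316 (Mup10), chr4:62087366-62087424 (Mup3) and chr4:62150884-62150942 (Mup21), and the stretch begins 143, 141, 87 and 81 bases before the annotated starts. Mup11 and Mup17 have the same 59 letters as Mup9. Mup11 was nevertheless listed at 13302 to 29231 TPM, Mup17 at 860 to 7557 TPM and Mup9 at 48.4 to 2802 TPM. These are near-identical members, so their single values are uncertain and rest on how salmon divided shared reads. In Mup7 the stretch lies at the annotated start. It occurs in 11 of the 27025 genes with a window (0.0407%), and those 11 are among the 14 Mup genes matched. The stretch was picked as common to the 7 member windows, so 7 of the 11 were fixed in advance and the share is no test. TATATAA, the letters of a TATA box, was found on either strand in 6 of the 7 members and in 3.84% of all genes. TTCNNNGAA, the letters bound by STAT factors, was found in 0 of 7 against 9.55% of genes, and TTGCNNAA, letters bound by C/EBP factors, in 0 of 7 against 12.2%. That says only that these letters are not in this window.

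Of the 11 genes listed for growth hormone signalling to the Mup genes, 10 were tested and 0 passed an adjusted p of 0.05 or an unadjusted p of 0.05 in limma's test, with a median log2 fold change of 0.42 beside 0.15 over all tested genes. Ghr, the growth hormone receptor, had 195 and 207 TPM in WT against 233 and 259 TPM in KO (0.29 ± 0.16). Stat5b, which carries the signal to the genes, had 5.37 and 6.42 TPM in WT against 8.76 and 7.01 TPM in KO (0.36 ± 0.23). Igf1, the secreted target of the same hormone, had 397 and 411 TPM in WT against 572 and 460 TPM in KO (0.35 ± 0.19). The KO libraries lay above both WT libraries in these 3 genes, and the differences did not pass limma's test (adjusted p 0.537, 0.579 and 0.524). Groups were separate for 5 of the 10 tested genes of the list, beside 45.3% of all tested genes. Igfals, which holds IGF1 in the blood, ranged from 29.7 to 47.8 TPM with overlapping groups. The largest changes in size were those of Igfbp3, an IGF carrier, at 0.86 ± 0.45, and of Bcl6, a repressor of STAT5 targets, at 0.79 ± 1.07 with 0.82 and 5.12 TPM in WT against 1.01 and 15.5 TPM in KO.

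Of 13 transcription factors listed for liver and Mup promoters, 12 were tested, 0 passed the adjusted threshold and 2 passed an unadjusted p of 0.05, both higher in KO, beside 10.5% of tested genes. The median of the list was 0.35 and that of all tested genes 0.15. The 2 were Hnf4a, the nuclear receptor that maintains hepatocyte identity, with 112 and 105 TPM in WT against 171 and 155 TPM in KO (0.59 ± 0.16, adjusted p = 0.464), and Onecut1, with 2.41 and 1.45 TPM in WT against 10.5 and 3.73 TPM in KO (1.35 ± 0.47, adjusted p = 0.464). Foxa1, a pioneer factor of liver genes, had 1.06 ± 0.47. Cebpa (86.7 to 161 TPM) and Cebpb (51.7 to 156 TPM), liver factors of the C/EBP family, overlapped between genotypes. Zbtb20 had 2.79 and 6.56 TPM in WT against 11.3 and 5.13 TPM in KO, and Zhx2, a regulator of Mup and other liver genes in some strains, had 1.72 and 2.59 TPM in WT against 2.31 and 2.71 TPM in KO. Neither gene separated the genotypes.

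Genes that share the sex bias of the Mup family were read alongside. All 20 male-biased genes were tested, 0 passed the adjusted threshold, and 6 were higher and 1 lower in KO at an unadjusted p under 0.05, a level that 10.5% of tested genes passed. Their median log2 fold change was 0.46 beside 0.15 over all tested genes. Their sum was 15464 and 15907 TPM in WT against 22124 and 17442 TPM in KO. It was highest in KO replicate 1, the library in which the Mup sum was lowest, but this rested on Serpina1e, a protease inhibitor. Serpina1e had 13071 TPM in KO replicate 1 and 7157 to 7391 TPM elsewhere, and without it the sum was highest in KO replicate 3. Gstp1 (5318 to 6662 TPM) and Cyp2d9 (831 to 1274 TPM) overlapped between genotypes. The 2 with the largest change were Elovl3, a fatty acid elongase, and Ugt2b38. Elovl3 had 87.5 and 10.8 TPM in WT against 253 and 208 TPM in KO (2.83 ± 0.88, limma's adjusted p = 0.464). Ugt2b38 had 3.96 and 6.36 TPM in WT against 32.5 and 28.0 TPM in KO (2.37 ± 0.26, limma's adjusted p = 0.1002). Also counted as higher were Cyp7b1, Cyp4a12a, C6 and Cyp4a12b, and Sult5a1 was the 1 counted as lower. Groups were separate for 12 of the 20 male-biased genes, beside 45.3% of all tested genes. Of 20 female-biased genes 4 were tested, and the list summed to 11.2 to 18.5 TPM. Acot4 (5.08 to 8.25 TPM) and Fmo2 (1.04 to 2.57 TPM) overlapped, and Acot3 had 3.06 and 4.77 TPM in WT against 0.11 and 1.56 TPM in KO (−1.52 ± 0.46, adjusted p = 0.464).

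Other lipocalins were given as the wider family. Of 12 listed, 10 were tested and 0 passed the adjusted threshold. At an unadjusted p under 0.05 in limma's test, 1 was higher in KO, Ptgds, and 3 were lower, Apom, Obp2a and Orm3. Of all tested genes 10.5% passed that level. The median of the list was −0.45, and that of all tested genes was 0.15. Apom had 330 and 283 TPM in WT against 171 and 213 TPM in KO. Obp2a had 27.9 and 17.4 TPM in WT against 4.97 and 12.7 TPM in KO. Ptgds had 0.64 and 0.95 TPM in WT against 2.42 and 2.77 TPM in KO. Rbp4, the carrier of retinol, had 3378 and 2993 TPM in WT against 2851 and 2952 TPM in KO, and Ambp, the precursor of alpha-1-microglobulin, ranged from 1868 to 2431 TPM. Orm1, an acute phase protein, ranged from 751 to 1426 TPM. Lcn2, an iron-siderophore carrier of the acute phase, had 67.1 TPM in WT replicate 3 and 2.67 to 4.59 TPM elsewhere (−2.17 ± 1.10), and Orm3 had 4.91 and 9.76 TPM in WT against 1.39 and 2.55 TPM in KO (−1.45 ± 0.38). WT replicate 3 was the library with the highest Orm1, Lcn2 and Orm3 and also with the highest Mup sum. KO replicate 3 had the next highest Mup sum and the next highest Orm1, at 902 TPM. Its Lcn2, at 2.67 TPM, was the lowest of the libraries, and its Orm3 stood at 2.55 TPM.

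Likeness to the family sum over the 4 libraries was measured as the root mean square difference of centred log2(TPM + 1) values among 4006 genes outside the family with a mean of at least 10 TPM. The closest 5 were Slc22a7, an organic anion transporter (0.05), Fcer1g, a signalling chain of Fc receptors (0.07), Coq10b (0.10), Rnf123 (0.10) and 2200002D01Rik (0.11), against a median of 0.48. Slc22a7 had 8.88 and 15.7 TPM in WT against 7.92 and 13.7 TPM in KO. With 4 libraries such closeness is a description of these libraries and no more.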

How the data were processed

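Liver RNA was sequenced in 2 WT and 2 Usp21 KO libraries, and per the labels the authors used Salmon, HTSeq, edgeR, Partek and deepTools with mm10; versions are not given in the sources used here. The authors deposited TPM per gene for 35739 genes and a TMM-normalized CPM signal for 55335 genes, each also as logarithms, whose 8 columns were not used. The CPM values were whole multiples of a read for 100% of entries (tolerance 0.02 reads), giving 102898 to 148164 reads per library, and of 686 genes that reached 100 TPM in each library, 428 were at 0 there.

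Genotypes were compared with limma 3.58.1 (R 4.3.3, eBayes with trend, two-sided, Benjamini-Hochberg) on log2(TPM + 1) over the 9581 genes whose mean reached 1 TPM; the added 1 makes fold changes of low genes too small. An exact permutation test of 2 against 2 cannot go below 0.333. The fit was run on simulated data in which each gene had the median residual SD of tested genes, 0.23. This cannot show how the fit performs on genes as variable as the members, whose median was 0.75. Members, gene lists and named genes (the members, other Mup genes, the 3 highest and 2 most changed of each list, fixed regulators, and 5 genes of like pattern) were chosen with earlier results of these data known. The values of 1 listed regulator are not reported here. Coding sequences were aligned with mafft 7.526. edgeR 4.0.16 and DESeq2 1.42.0 were run on recovered reads. Alternatives covered pseudocount, filter, scaling, moderation, table and leaving out each library.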

Additional observations from a re-analysis of the deposited data

How the results depend on the processing

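No member passed an adjusted p of 0.05 under any alternative except without a filter on low values, where 4 did (Mup1, Mup9, Mup17 and Mup21, adjusted p 0.00518, 4.71e-18, 0.00572 and 0.00572), with 16 genes of the other lists and 1166 genes in all in place of 8. In that fit 57.9% of genes were at 0 TPM in every library and had no variance, and limma warned that its moderation was unreliable. The log2 fold changes themselves were the same there. Over all genes 0 passed without moderation, 1 on the CPM table, 1 with DESeq2 and 12 with edgeR on recovered reads. The members had too few reads there for any value. Under upper-quartile scaling Mup3 (−0.057) and Mup10 (−0.12) changed sign, as did Mup10 (−0.041) when libraries were rescaled without the Mup rows. Pseudocounts of 0.1 and 5 and a filter of 5 TPM turned no member's direction.

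Leaving out each library in turn, the members changed at least 2-fold in either direction numbered 0 to 5 (4.83% to 7.25% of tested genes), those with separate groups 3 to 8 (70.2% to 76.9% of tested genes, so that the 3 to 8 cannot be read as a result) and all genes called 0 each time, with the lone library assumed to vary like the others. The log2 fold changes then ranged from −2.31 to 0.28 for Mup1, −0.15 to 0.31 for Mup3, −1.71 to 0.042 for Mup7, −4.78 to 0.34 for Mup9, −0.32 to 0.35 for Mup10, −0.74 to 0.20 for Mup11, −2.46 to 0.44 for Mup17, −0.040 to 1.06 for Mup20, 0.15 to 1.78 for Mup21 and −0.32 to 0.13 for Mup22. Without KO replicate 1, 1 of the 10 members was lower in KO; the cause was not tested. No paired analysis was possible because number 3 is the 1 replicate number that both genotypes share. The share of the near-identical members, left out library by library as an alternative chosen after seeing the data, differed by −13.8 to −4.55 percentage points. The family sum kept its sign with all Mup genes (−0.28) and as a ratio of means (−0.21). The depth behind TPM is unknown, which limits what 2 libraries a genotype can show.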
